A study of Mus musculus with 15 samples.

Results

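A set of 10 genes of the fat-cell programme and of leptin receptor stroma were followed through cultured bone marrow endothelial cells (BMECs) and their comparison cultures. The genes, Pparg, Cebpa, Cebpb, Cebpd, Lpl, Fabp4, Plin1, Adipoq, Cfd and Lepr, were taken by symbol from the deposited count table, which holds 44674 genes and 15 libraries. They were listed for their known roles, but with earlier results of these data known. All 10 passed the filter on low counts that left 19401 genes for testing. Whole bone marrow of mice 4 to 6 months old had been grown for about 2 weeks in EGM-2, an endothelial growth medium that contains hydrocortisone, and endomucin-positive (Emcn+) and endomucin-negative (Emcn-) cells were then sorted from this first culture (P0). According to the study's methods the sort gate was CD45- and tdTomato+ in Tie2-CreERT2;Rosa26-tdTomato mice given tamoxifen, in which the Tie2 promoter drives the recombinase. The labels give the genotype of the animals as WT, and animals of both sexes were used. The P1, P2, P3 and P4 libraries are of Emcn- cells from later passages, and whether they were passaged as whole marrow or after the first sort is not given for them in the sources used here. Lung libraries are of Emcn- cells that the study sorted from lung tissue grown in EGM-2 and describes as endothelial, and bone marrow mesenchymal stromal cells (BM MSC) came from Osx-Cre;Rosa26-tdTomato mice, in which the Osx promoter drives Cre, and were grown in MesenCult medium and sorted as CD45- and tdTomato+. There were 2 libraries in each condition except P4 Emcn-, which had 1. Mouse line, medium and cell population changed together between BM MSC and the other cultures and cannot be told apart.

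Fat-cell differentiation is driven by a cascade of transcription factors. C/EBPβ and C/EBPδ act early and are followed by PPARγ and C/EBPα, which maintain each other and switch on genes for lipid uptake, storage and secreted fat-cell proteins. In bone marrow the cells that carry the leptin receptor are perivascular stromal cells that make CXCL12 and stem cell factor, express some of the fat-cell programme and can become marrow adipocytes. Lipoprotein lipase is made by fat, muscle and some stromal cells and works at the surface of capillary endothelium, and FABP4 is found in capillary endothelial cells as well as in fat.

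The labels call the Emcn+ and the Emcn- cells BMECs, but their RNA levels of endothelial marker genes differed. For the endothelial name the study also reports protein staining of CD31 and of VE-cadherin, the product of Cdh5, in colony-forming cells that lacked Emcn. It further reports that P0 Emcn- cells were enriched in mesenchymal genes such as Runx2 and Pdgfrb. Protein was not measured here. The summed level of 10 endothelial markers was 10386 to 12280 CPM (the counts of a gene for every 1000000 counts of its library) in P0 Emcn+, 73.0 to 269 in P0 Emcn-, 45.9 to 71.6 in P1 to P3 Emcn-, 60.4 in P4 Emcn-, 185 to 822 in Lung and 43.3 to 361 in BM MSC. Cdh5, the endothelial cadherin, stood at 6222 and 5118 CPM in P0 Emcn+, at 119 and 6.35 CPM in P0 Emcn-, and at 0.0564 to 2.33 CPM in the P1 to P3 libraries. Not all 10 endothelial markers followed Cdh5. Tek, the gene of Tie2, was at 168 and 125 CPM in P0 Emcn+, 20.3 and 49.4 in P0 Emcn-, and 40.3 and 30.1 in P1. Tek was lower at P3 than at P1 in both batches. Kdr, also on the list, rose from P1 to P3, from 12.3 to 30.1 CPM in batch b and from 7.96 to 15.5 CPM in batch c. The sum of 10 fibroblast markers was lowest in P0 Emcn+, at 221 to 302 CPM. It was 15048 to 20019 CPM in P0 Emcn-, 4108 to 5907 CPM in P1 to P3, 12311 to 13037 CPM in Lung and 11185 to 19853 CPM in BM MSC. Both sums were lower in P1 to P3 than in P0 Emcn-. Markers of macrophages summed to 784 to 987 CPM in P0 Emcn+, 270.3 to 310.5 CPM in P0 Emcn-, 85.3 to 262 CPM in P1, 12.4 to 17.7 CPM in P3, 19.5 to 21.8 CPM in Lung and 17.7 to 30.7 CPM in BM MSC. The marrow Emcn- libraries are therefore named here by their sort only, and the lung Emcn- libraries by their tissue. In bulk RNA a smaller number of cells of a type and less RNA per cell cannot be told apart. Library totals ran from 9914620 to 39718807 counts, and a count of 0 allowed a level of up to 0.0755 CPM in the deepest and 0.303 CPM in the shallowest library, for counting error only. Batch letters in the labels split the libraries in this way: among both P0 sorts and Lung, d holds replicate 1 and a holds replicate 2, b holds replicate 1 of P1 to P4, and c holds replicate 2 of P1 to P3 together with all BM MSC libraries. Wherever P0 or Lung is set against passaged cells or BM MSC, the effects of batch and of condition cannot be told apart.

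**Figure D1:**
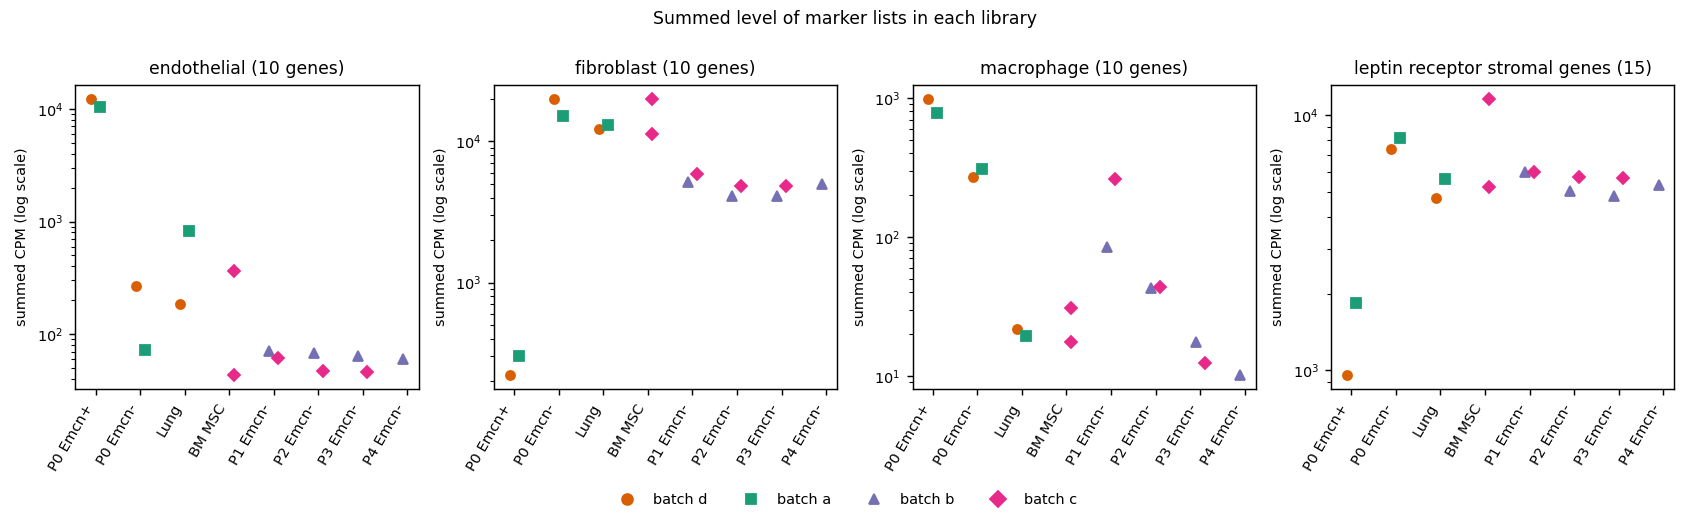
Summed CPM of marker lists in each library (log scale), by condition on the x axis, with colour and symbol for the batch; each point is 1 library. Endothelial markers were highest in the 2 P0 Emcn+ libraries (10386 to 12280 CPM), where fibroblast markers were lowest (221 to 302 CPM).

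Promoter sequences, from 250 bases before to 50 bases after a start site, were held in the RefSeq table (GRCm38.p6) for 7 of the 10 genes, at 10 start sites; Fabp4, Lpl and Cebpd had no entry. The 4 promoters shown belong to the genes that were lower than in P0 Emcn- cells both in P0 Emcn+ cells and in Lung. Each is written in the direction of its transcript, and capitals mark matches on either strand to TTGCNNAA (a C/EBP site), CCAAT (bound by NF-Y), TATAAA (bound by TBP), GGGCGG (bound by SP1) or the direct repeat bound by PPARγ with RXR, which is AGGTCA given again after 1 base of any kind. None of these motifs contains another.
Adipoq, chr16:23146286-23146585, plus strand: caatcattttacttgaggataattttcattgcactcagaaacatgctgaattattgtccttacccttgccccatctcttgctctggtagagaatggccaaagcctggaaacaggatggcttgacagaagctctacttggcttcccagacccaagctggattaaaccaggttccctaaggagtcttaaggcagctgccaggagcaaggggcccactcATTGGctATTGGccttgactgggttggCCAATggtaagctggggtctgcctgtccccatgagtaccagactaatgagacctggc
Cebpa, chr7:35119043-35119342, plus strand: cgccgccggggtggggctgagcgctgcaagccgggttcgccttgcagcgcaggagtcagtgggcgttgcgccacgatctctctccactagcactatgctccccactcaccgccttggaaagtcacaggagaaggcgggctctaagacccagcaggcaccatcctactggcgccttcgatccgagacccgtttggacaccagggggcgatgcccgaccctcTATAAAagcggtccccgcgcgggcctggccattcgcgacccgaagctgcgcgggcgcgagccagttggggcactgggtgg
Plin1, chr7:79732727-79733026, minus strand: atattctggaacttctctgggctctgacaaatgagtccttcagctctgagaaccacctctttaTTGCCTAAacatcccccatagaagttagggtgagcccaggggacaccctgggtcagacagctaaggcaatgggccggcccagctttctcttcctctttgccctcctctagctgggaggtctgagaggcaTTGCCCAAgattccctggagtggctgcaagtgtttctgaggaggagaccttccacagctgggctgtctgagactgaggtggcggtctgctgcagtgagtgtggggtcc
Cfd, chr10:79890603-79890902, plus strand: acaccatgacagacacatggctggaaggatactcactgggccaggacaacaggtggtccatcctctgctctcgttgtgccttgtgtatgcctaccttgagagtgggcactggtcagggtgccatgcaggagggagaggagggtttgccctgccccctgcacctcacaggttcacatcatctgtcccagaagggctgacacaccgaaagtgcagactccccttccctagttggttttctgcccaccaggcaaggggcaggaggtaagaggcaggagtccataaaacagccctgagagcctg
The Plin1 promoter held 2 matches to TTGCNNAA, starting at positions -187 and -58 from the start site, the Adipoq promoter held 3 CCAAT matches, the Cebpa promoter held a TATAAA match at -30, and the Cfd promoter held none of the 5 motifs. Over the 10 start sites, TTGCNNAA was found in 3 promoters, of Lepr, Plin1 and Pparg, against 10.8% of all 32851 promoters in the table. CCAAT was found in 4 of the 10 against 37.4% of all, TATAAA in 3 against 13.6%, GGGCGG in 4 against 35.7%, and the PPARγ repeat in 0 against 0.0396%. These matches describe letters in the window and no binding was measured.

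A total of 6 comparisons were tested with edgeR's quasi-likelihood test over all genes, and a gene was called when its adjusted p was under 0.05 and its log2 fold change was beyond 1.5 in either direction. In P0 Emcn+ over P0 Emcn- cells 7 of the 10 genes were called lower and 0 higher, where 11.4% of all tested genes were lower and 7.79% higher. In Lung over P0 Emcn- 4 were lower and 0 higher, against 1.7% and 2.13% of all genes. For BM MSC over P0 Emcn- 3 were lower and 0 higher, against 7.45% and 11.3%. P1 over P0 Emcn- had 1 lower and 0 higher, against 3.07% and 5.77%, and P3 over P1 Emcn- had 1 lower and 0 higher, against 0.144% and 0.0773%. In BM MSC over the mean of P1 to P3 Emcn- 2 were lower and 0 higher, against 5.81% and 8.42%. The median log2 fold change of the 10 genes in these comparisons was -2.27, -1.59, -1.01, 0.07, -0.02 and -0.74 in that order, and over all tested genes it lay between -0.06 and 0.02. The first 4 comparisons share the P0 Emcn- libraries, so their values are not independent of each other. The genes were chosen with earlier results of these data known, so the counts beside the shares of all genes are no test of the set.

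**Figure D2:**
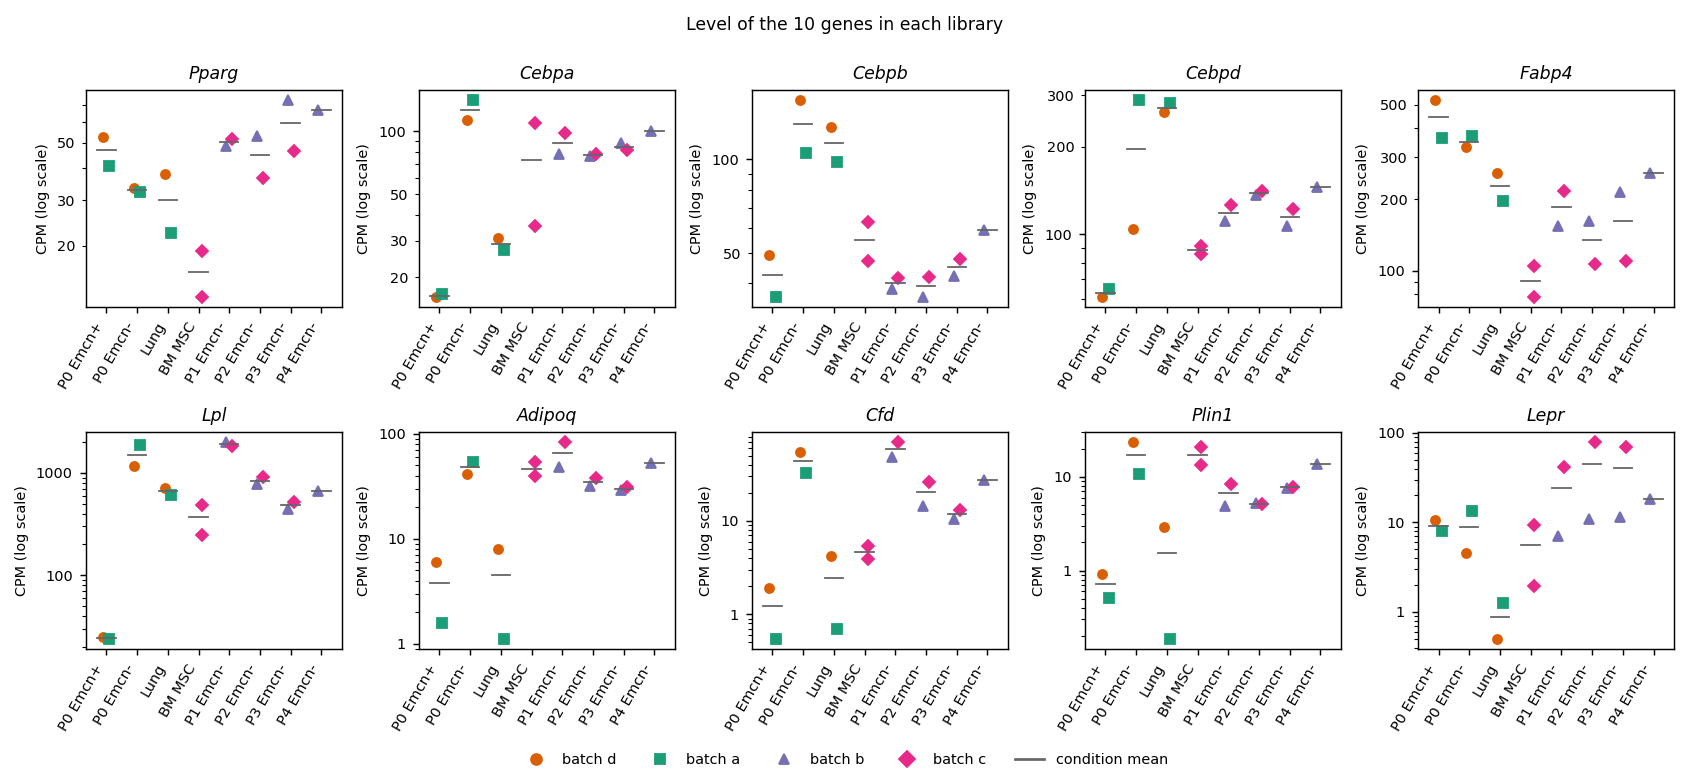
CPM of the 10 genes (log scale) in each of the 15 libraries, by condition, with colour and symbol for the batch and a bar for the condition mean. Lpl ranged from 23.7 CPM in P0 Emcn+ to 2011 CPM in P1 Emcn-, whereas Pparg stayed between 12.7 and 73.2 CPM.

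Set per kilobase of the principal transcript, so that genes can be compared within a condition, mean levels in P0 Emcn- were led by Fabp4 at 390 and Lpl at 368 CPM per kb, followed by Cebpb at 86.5, Cebpd at 52.5, Cebpa at 48.5, Cfd at 47.1, Adipoq at 37.1, Pparg at 18.5, Plin1 at 6.13 and Lepr at 2.62 CPM per kb. In P0 Emcn+ cells Fabp4 stood alone at 493 CPM per kb, with Cebpb next at 28.3 and Lpl sixth at 5.87 CPM per kb. In P1 Emcn- Lpl led at 469 CPM per kb ahead of Fabp4 at 207. Lepr was the lowest or next to lowest gene in every condition but P0 Emcn+, at 0.255 CPM per kb in Lung and 13.2 CPM per kb in P2 Emcn-. Plin1 was the lowest in P0 Emcn+, at 0.252 CPM per kb.

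Pparg, the nuclear receptor at the centre of the programme (chr6:115360951-115490399, plus strand, GRCm38), was read at 52.8 and 40.8 CPM in P0 Emcn+, 33.3 and 32.2 in P0 Emcn-, 37.8 and 22.4 in Lung, and 12.7 and 19.0 in BM MSC. In passaged Emcn- cells the libraries of batch b gave 48.7, 53.1, 73.2 and 67.2 CPM from P1 to P4, and those of batch c gave 51.8, 36.6 and 46.4 CPM from P1 to P3. Both BM MSC libraries lay below all 13 other libraries. Pparg was lower in BM MSC than in the mean of P1 to P3 Emcn-, at -1.80 ± 0.30 on the log2 scale (3.48-fold lower, adjusted p = 0.0015; errors of all log2 values are 1 standard error). Against P0 Emcn- the BM MSC value was -0.96 ± 0.33 (adjusted p = 0.0444), inside the fold limit. P0 Emcn+ and P0 Emcn- did not differ beyond the threshold (0.55 ± 0.32, adjusted p = 0.231), although every Emcn+ library was above every Emcn- library, and Pparg was not called in Lung (-0.05 ± 0.32) or in P1 over P0 Emcn- (0.77 ± 0.33, adjusted p = 0.123). From P1 to P3 it stood at 1.5 times its P1 level in batch b and 0.897 times in batch c.

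Cebpa encodes C/EBPα, which sustains the differentiated fat cell (chr7:35119293-35121928, plus strand). It was read at 16.1 and 16.7 CPM in Emcn+ cells at P0 and at 113 and 142 CPM in Emcn- cells. Lung libraries held 31.0 and 27.1 CPM and BM MSC libraries 35.4 and 110.3 CPM. The passaged libraries were close together, between 76.0 and 101 CPM. P0 Emcn- had the highest 2 libraries of all, and P0 Emcn+ the lowest 2. Cebpa fell by 2.93 ± 0.40 on the log2 scale in P0 Emcn+ relative to P0 Emcn- (7.60-fold lower, adjusted p = 0.000364). It was also lower in Lung, with -2.06 ± 0.39 (4.18-fold, adjusted p = 0.0148), a call lost when either Lung library was left out (adjusted p = 0.0752 and 0.0849) although the fold change stayed at -2.19 and -1.95. The BM MSC libraries disagreed by more than 3-fold, and their difference from P0 Emcn- was not called (-0.73 ± 0.38, adjusted p = 0.156); without BM MSC replicate 2 it was -1.73 with adjusted p = 0.000582, which would be called. An antisense gene, Gm45091, overlaps the exons of Cebpa, and the methods name default settings of the workflow without saying how strand was used, so reads of the pair cannot be told apart here.

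Cebpb and Cebpd encode the early factors C/EBPβ and C/EBPδ, which respond to glucocorticoid and inflammatory signals. Cebpb (chr2:167688915-167690418, plus strand) was read at 49.1 and 36.0 CPM in P0 Emcn+, 155 and 105 in P0 Emcn-, 127 and 98.4 in Lung, and 47.0 and 63.0 in BM MSC, and it stayed between 36.2 and 59.3 CPM in the 7 passaged libraries. The P0 Emcn- and Lung libraries were thus above every other library. Cebpb was lower in P0 Emcn+ than in P0 Emcn- (-1.58 ± 0.24, 2.99-fold, adjusted p = 0.000585) and lower in P1 than in P0 Emcn- (-1.55 ± 0.24, 2.93-fold, adjusted p = 0.00228). Both values sat close to the fold limit. Without P0 Emcn- replicate 1 they were -1.25 and -1.24, without P0 Emcn+ replicate 2 the first was -1.36, and with ashr shrinkage in DESeq2 they were -1.47 and -1.46, none of which is called. In BM MSC over P0 Emcn- Cebpb passed the p threshold at -1.16 ± 0.23 (adjusted p = 0.00422) without passing the fold limit, and Lung over P0 Emcn- was -0.14 ± 0.23.

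Cebpd (chr16:15887286-15891031, plus strand) had the widest disagreement between the P0 Emcn- libraries among the 4 transcription factors, 104 against 289 CPM. Its other levels were 60.8 and 64.8 CPM in P0 Emcn+, 262 and 282 in Lung, 91.0 and 85.4 in BM MSC, and 107 to 146 CPM in the passaged libraries. The call of lower Cebpd in P0 Emcn+ (-1.61 ± 0.35, 3.05-fold, adjusted p = 0.00521) rested on P0 Emcn- replicate 2. Without that library it was -0.70, with the batch as a block it was -1.49, and in a fit of the P0 groups alone its adjusted p was 0.0778. The call was also lost with ashr shrinkage in DESeq2. Within batch d the ratio of Emcn+ to Emcn- was 0.583 and within batch a it was 0.224. Cebpd in BM MSC over P0 Emcn- was -1.06 ± 0.34 (adjusted p = 0.0366), inside the fold limit, and -1.63 without P0 Emcn- replicate 1. Lung stood at 2.52 times P0 Emcn- in batch d and 0.976 times in batch a (pooled 0.54 ± 0.34, adjusted p = 0.463). Cebpb overlaps Tmem189 and Cebpd overlaps Spidr on the opposite strand, with the same limit as for Cebpa.

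**Figure D3:**
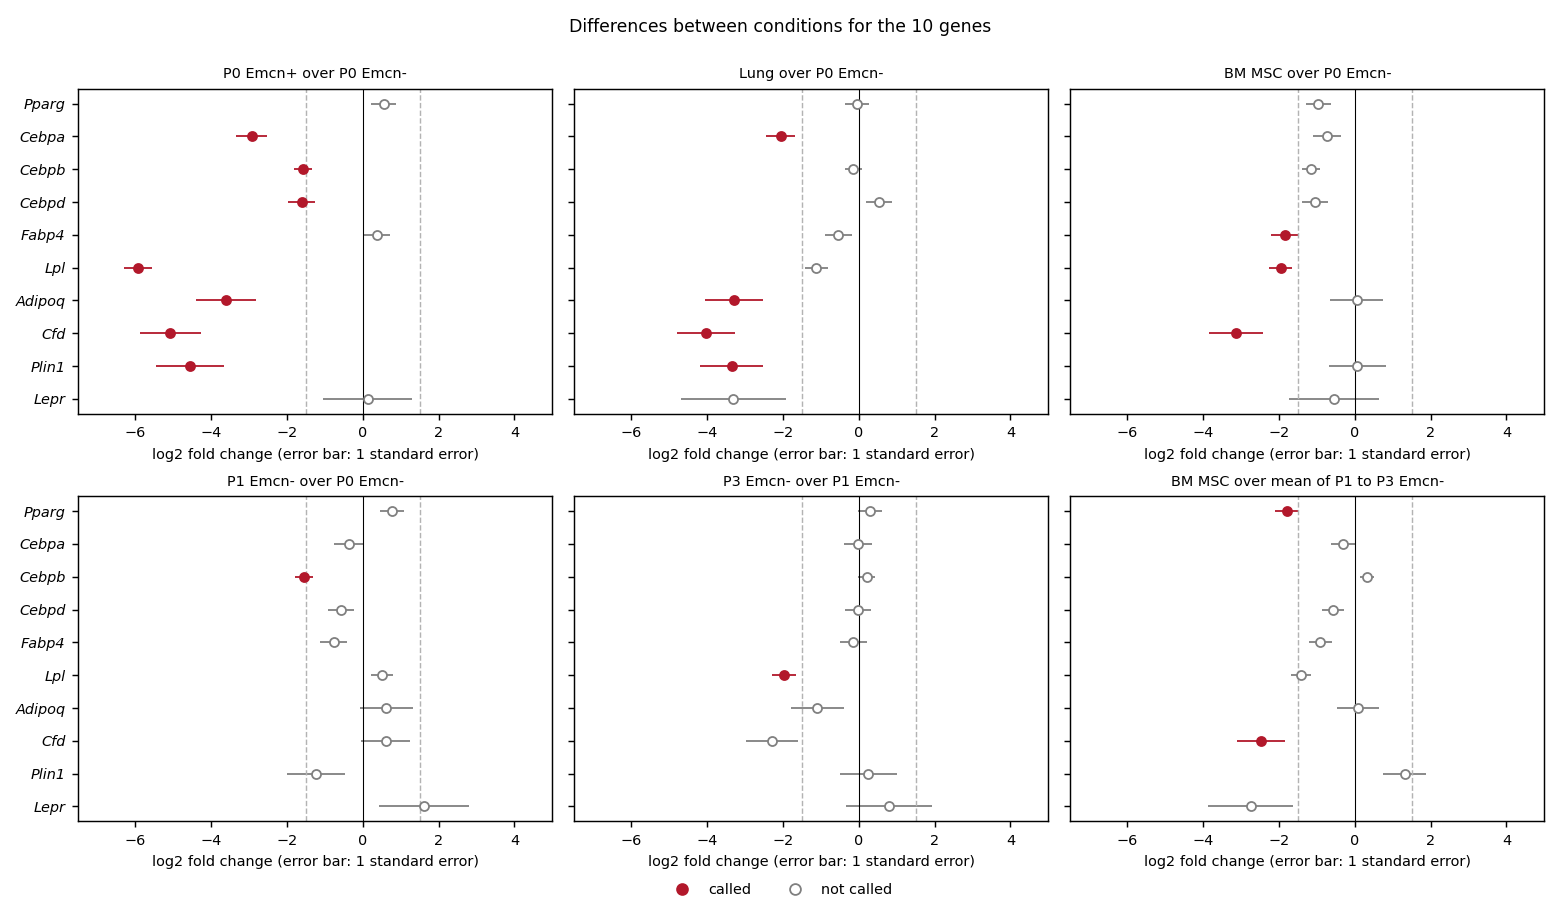
Log2 fold change (x axis, error bars 1 standard error) of the 10 genes in the 6 comparisons; filled red points were called, open grey points were not, and dashed lines mark the fold limit. In P0 Emcn+ over P0 Emcn- 7 genes were called lower, led by Lpl at -5.93, while Pparg, Fabp4 and Lepr lay near 0.

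Lpl encodes lipoprotein lipase, which frees fatty acids from circulating triglyceride (chr8:68880491-68907448, plus strand). It had the largest fold change and the lowest adjusted p of the 10 genes between the P0 sorts. P0 Emcn+ libraries held 24.7 and 23.7 CPM, and P0 Emcn- libraries held 1165 and 1863 CPM. Lung gave 716 and 608 CPM and BM MSC 249.8 and 489 CPM. Every Emcn-, Lung and BM MSC library was thus at least 10 times above both Emcn+ libraries. Lpl fell by 5.93 ± 0.37 on the log2 scale in P0 Emcn+ relative to P0 Emcn- (61.2-fold lower, adjusted p = 3.17e-06), with ratios of 0.0212 in batch d and 0.0127 in batch a. It was also lower in BM MSC than in P0 Emcn- (-1.95 ± 0.31, 3.87-fold, adjusted p = 0.00125), although a fit of those groups alone gave adjusted p = 0.0518. Lung over P0 Emcn- was -1.12 ± 0.30 (adjusted p = 0.0633) and not called.

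Over the passages Lpl was read at 2011, 774, 440.1 and 662 CPM in batch b (P1 to P4) and at 1853, 902 and 522 CPM in batch c (P1 to P3). The P1, P2 and P3 libraries did not overlap, and the order P1, P2, P3 was the same in batch b and batch c. P3 stood at 0.219 times P1 in batch b and 0.282 times in batch c. The pooled P3 over P1 value of -1.97 ± 0.31 (3.93-fold lower) was called at adjusted p = 0.0385, but not once any of the 4 P1 and P3 libraries was left out (-1.89 to -2.07, adjusted p = 0.146 to 0.371). BM MSC over the mean of P1 to P3 was -1.42 ± 0.27 (adjusted p = 0.00303), inside the fold limit, and -1.95 without BM MSC replicate 2. Macrophages can also make lipoprotein lipase, and 5 of 10 macrophage markers were called lower in P3 than in P1. The summed macrophage level fell from between 85.3 and 262 CPM at P1 to between 12.4 and 17.7 CPM at P3, and its part in the change of Lpl was not tested.

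Fabp4 encodes a carrier of fatty acids inside the cell (chr3:10204088-10208576, minus strand). Unlike Lpl it was high in P0 Emcn+ cells, at 523 and 361 CPM, as well as in P0 Emcn- cells, at 331 and 367 CPM. Lung libraries held 258 and 197 CPM and BM MSC libraries 77.4 and 105 CPM. Passaged libraries of batch b gave 154, 162, 215 and 259 CPM from P1 to P4, and libraries of batch c gave 216, 107 and 109.6 CPM from P1 to P3. The BM MSC libraries were the lowest 2 of the 15. Fabp4 was lower in BM MSC than in P0 Emcn- (-1.85 ± 0.37, 3.61-fold, adjusted p = 0.00392), whereas against the mean of P1 to P3 it was -0.91 ± 0.31 (adjusted p = 0.0455), inside the fold limit. The P0 Emcn+ and Emcn- libraries overlapped (0.38 ± 0.36, adjusted p = 0.469), with a ratio of 1.58 in batch d and 0.983 in batch a. From P1 to P3 the ratio was 1.4 in batch b and 0.507 in batch c, so no common direction was seen (-0.14 ± 0.36).

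Plin1 encodes perilipin 1, which coats the lipid droplet of fat cells (chr7:79720218-79732903, minus strand). Levels were low throughout, at 0.919 and 0.502 CPM in P0 Emcn+, 23.7 and 10.8 in P0 Emcn-, 2.90 and 0.184 in Lung, and 13.4 and 21.1 in BM MSC. Passaged libraries lay between 4.88 and 8.50 CPM from P1 to P3, and P4 was at 13.8 CPM. P0 Emcn- and BM MSC overlapped, and both were above P0 Emcn+ and Lung. Plin1 was lower in P0 Emcn+ than in P0 Emcn- (-4.56 ± 0.90, 23.5-fold, adjusted p = 0.00305), with ratios of 0.0387 in batch d and 0.0466 in batch a. It was lower in Lung too (-3.35 ± 0.83, 10.2-fold, adjusted p = 0.0459), a call lost without P0 Emcn- replicate 1 (-2.65, adjusted p = 0.152) and in a fit of those groups alone (adjusted p = 0.31). BM MSC over P0 Emcn- was 0.07 ± 0.74 and BM MSC over the mean of P1 to P3 was 1.32 ± 0.57 (adjusted p = 0.105).

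Adipoq encodes adiponectin, a hormone secreted by fat cells (chr16:23146536-23158028, plus strand), and is also a marker of marrow stromal cells with a fat-cell bias. It was read at 5.99 and 1.58 CPM in P0 Emcn+, 41.5 and 54.3 in P0 Emcn-, 7.95 and 1.11 in Lung, and 39.4 and 53.8 in BM MSC. Batch b of the passaged Emcn- cells held 48.3, 32.2, 29.1 and 52.3 CPM from P1 to P4, and batch c held 83.9, 37.8 and 31.1 CPM from P1 to P3. All Emcn- and BM MSC libraries were therefore above 29 CPM and all Emcn+ and Lung libraries below 8 CPM. Adipoq fell by 3.60 ± 0.78 on the log2 scale in P0 Emcn+ (12.2-fold lower, adjusted p = 0.00526) and by 3.28 ± 0.77 in Lung (9.71-fold lower, adjusted p = 0.0365), both relative to P0 Emcn-. Leaving out replicate 1 or 2 of P0 Emcn- or replicate 2 of Lung took the Lung call away, with adjusted p of 0.0689, 0.0793 and 0.0747 and log2 fold changes of -3.45, -3.09 and -2.50, and so did a fit of those groups alone (adjusted p = 0.201). BM MSC did not differ beyond the threshold from P0 Emcn- (0.05 ± 0.69) or from the passaged cells (0.08 ± 0.56). P3 over P1 was -1.09 ± 0.70 (adjusted p = 0.548), with ratios of 0.602 in batch b and 0.371 in batch c.

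Cfd encodes adipsin, or complement factor D, a protease of the alternative complement pathway that fat cells secrete (chr10:79890853-79892655, plus strand). P0 Emcn+ libraries held 1.93 and 0.541 CPM, P0 Emcn- 54.5 and 32.4, Lung 4.20 and 0.692, and BM MSC 5.39 and 3.90 CPM. Passaged Emcn- libraries gave 48.6, 14.5, 10.5 and 27.6 CPM in batch b (P1 to P4) and 70.4, 26.0 and 13.3 CPM in batch c (P1 to P3). Every Emcn- library was thus above both BM MSC libraries for Cfd, whereas for Adipoq and Plin1 the ranges overlapped. For Plin1 the overlap was with P0 and P4 alone, and the P1 to P3 libraries lay below BM MSC. Relative to P0 Emcn- it was lower in P0 Emcn+ (-5.07 ± 0.80, 33.7-fold, adjusted p = 0.000842), in Lung (-4.03 ± 0.75, 16.3-fold, adjusted p = 0.014) and in BM MSC (-3.13 ± 0.72, 8.77-fold, adjusted p = 0.00798). The Lung call was lost without P0 Emcn- replicate 1 (adjusted p = 0.0508) and in a fit of those groups alone (adjusted p = 0.13), and the BM MSC call without BM MSC replicate 2 (adjusted p = 0.0554). Against the mean of P1 to P3 the BM MSC value was -2.47 ± 0.63 (5.54-fold lower, adjusted p = 0.0145), not called without BM MSC replicate 1 or 2 (adjusted p = 0.0678 and 0.116) or with the passaged libraries of the BM MSC batch alone (-2.70, adjusted p = 0.0599).

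From P1 to P3 the P3 level of Cfd was 0.216 times the P1 level in batch b and 0.188 times in batch c, and the P1, P2 and P3 libraries did not overlap. The pooled value of -2.29 ± 0.69 missed the threshold (adjusted p = 0.187). With the batch as a block it was -2.27 with adjusted p = 0.0379, and it was also called by DESeq2 (adjusted p = 0.0245) and in a fit of P1 and P3 alone (adjusted p = 0.0395). In the single P4 library Lpl stood at 1.51, Cfd at 2.62, Adipoq at 1.80, Plin1 at 1.79 and Lepr at 1.59 times their level in the P3 library of the same batch, and Pparg at 0.918 times. P4 had no replicate, so these ratios were not tested.

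**Figure D4:**
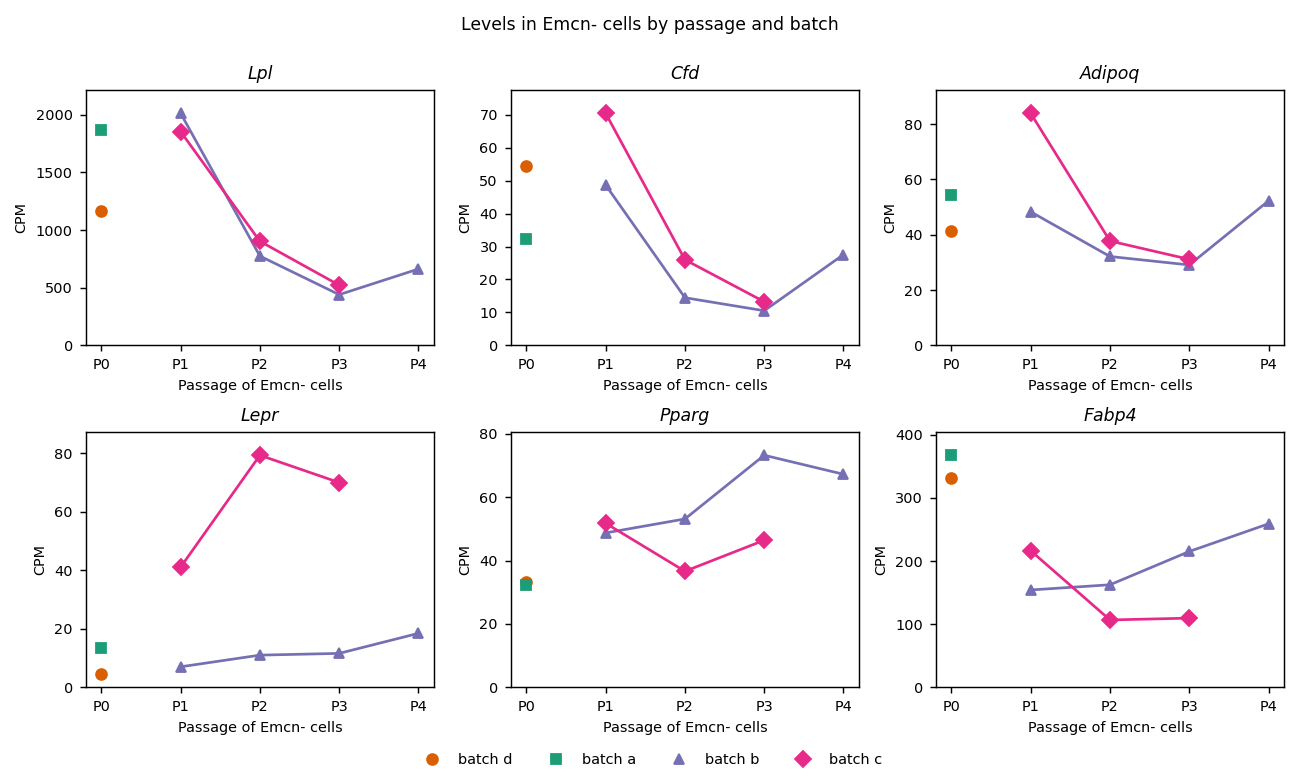
CPM of 6 genes in Emcn- cells against passage (linear axis from 0), with colour and symbol for the batch and lines joining libraries of 1 batch; P0 came from other batches and is not joined. Among the passaged libraries of each batch Lpl and Cfd were highest at P1 and lower at P3, whereas the Lepr level was set apart by batch from P1 to P3.

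Lepr, the receptor for leptin and the gene that defines this stroma (chr4:101717404-101815352, plus strand), was low in most libraries. It stood at 10.6 and 7.92 CPM in P0 Emcn+, 4.53 and 13.3 in P0 Emcn-, 0.497 and 1.24 in Lung, and 1.96 and 9.28 in BM MSC. Passaged Emcn- libraries of batch b held 7.02, 11.0, 11.6 and 18.4 CPM from P1 to P4, and those of batch c held 41.1, 79.3 and 70.0 CPM from P1 to P3. The batches of passaged cells were therefore set apart, with batch c at 5.85, 7.21 and 6.03 times batch b at P1, P2 and P3. Within each batch P3 was above P1, by 1.65 times in batch b and 1.70 times in batch c, and the pooled P3 over P1 value was 0.79 ± 1.14 (adjusted p = 0.824). Counts are per gene and do not separate the isoforms of the receptor.

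P0 Emcn+ and P0 Emcn- did not differ in Lepr beyond the threshold (0.13 ± 1.18, adjusted p = 0.979), with ratios of 2.33 in batch d and 0.595 in batch a. Lung was below P0 Emcn- in each batch, at 0.110 and 0.0935 times. The pooled value was -3.31 ± 1.37 (adjusted p = 0.237), and with the batch as a block it was -3.24 and called (adjusted p = 0.0462). BM MSC over the mean of P1 to P3 was -2.75 ± 1.11 (adjusted p = 0.0864). With the block it was -3.53 (adjusted p = 0.00538), a value in which the level of BM MSC rests on the difference between batches b and c in passaged cells. Against the passaged libraries of its own batch alone, a comparison chosen after the data were seen, it was -3.53 (adjusted p = 0.0293), and it was called by DESeq2 as well (adjusted p = 0.0243). P1 over P0 Emcn- was 1.62 ± 1.19 (adjusted p = 0.362).

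The leptin receptor stroma is known by other genes too, and 15 of them were listed. The counts of this and the further lists stand beside the shares of all tested genes given above for each comparison. Counts near those shares are not read as results about a list. All list counts came from fits without the batch as a block. P1 and P3 share batches, so the list counts for P3 over P1 are from tests that left this pairing out. In P0 Emcn+ over P0 Emcn- 10 of the 15 were lower and 0 higher, with a median of -2.21, while Lepr itself was not called. The lower genes were led by the platelet-derived growth factor receptors Pdgfra (-6.33 ± 0.41, adjusted p = 3.53e-06) and Pdgfrb (-5.92 ± 0.45, adjusted p = 9.1e-06), haptoglobin Hp (-5.37 ± 0.58) and the transcription factor Ebf1 (-4.41 ± 0.52). In Lung over P0 Emcn- 2 were higher and 0 lower, Vcam1, an adhesion molecule, at 1.68 ± 0.31 and Igf1, a growth factor, at 1.62 ± 0.37. In BM MSC over P0 Emcn- 3 were higher and 2 lower, against 11.3% and 7.45% of all genes, led by Hp at -3.28 ± 0.53 and Igf1 at 2.88 ± 0.38. In P1 over P0 Emcn- and in P3 over P1 0 of the 15 were called by edgeR or DESeq2, and 3 and 4 had an unadjusted p under 0.05. BM MSC over the mean of P1 to P3 had 4 higher and 2 lower, with the chemokine Cxcl12 at 2.23 ± 0.43 (adjusted p = 0.00332), Igf1 at 2.06 ± 0.27, Hp at -2.00 ± 0.45 and the BMP antagonist Grem1 at 1.88 ± 0.57. The same P0 comparison had 10 of 10 fibroblast markers lower and 9 of 10 endothelial markers higher, and their part in the counts of these lists was not tested.

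Downstream of the receptor, 10 leptin signalling genes were listed. Irs1 and Irs2, the insulin receptor substrates, were lower in P0 Emcn+ (-4.16 ± 0.31 and -3.87 ± 0.25), the other 8 were not called, and the median was 0.25. In Lung over P0 Emcn- 0 of the 10 were called by edgeR or DESeq2 (3 at an unadjusted p under 0.05). Irs1 was higher in BM MSC than in P0 Emcn- (1.88 ± 0.28), and Irs2 (-1.83 ± 0.23) and Socs3 (-1.63 ± 0.38), a feedback inhibitor of cytokine receptors, were lower. Socs3 was also the 1 gene called in P1 over P0 Emcn- (-1.59 ± 0.38, adjusted p = 0.0193), and 0 were called by edgeR or DESeq2 in P3 over P1 (3 at an unadjusted p under 0.05) or in BM MSC over the passaged cells (6). Leptin itself, Lep, was at 0 counts in the 8 P0, Lung and BM MSC libraries and at most at 0.275 CPM elsewhere.

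Of 34 other fat-cell lipid and regulator genes 30 were tested. In P0 Emcn+ over P0 Emcn- 15 were lower and 1 higher, with a median of -1.56. Ebf2, a factor of the preadipocyte, was at 1.46 and 1.28 CPM in the Emcn+ sort against 59.4 and 124 CPM in the Emcn- sort (-6.02 ± 0.72, adjusted p = 0.00014). Retn, the hormone resistin, followed at -5.43 ± 0.79, Adrb3, the β3 adrenergic receptor, at -4.74 ± 0.55 and Plin4, a lipid droplet coat protein, at -4.63 ± 0.25. The 1 higher gene was the monoacylglycerol lipase Mgll at 3.40 ± 0.52.

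**Figure D5:**
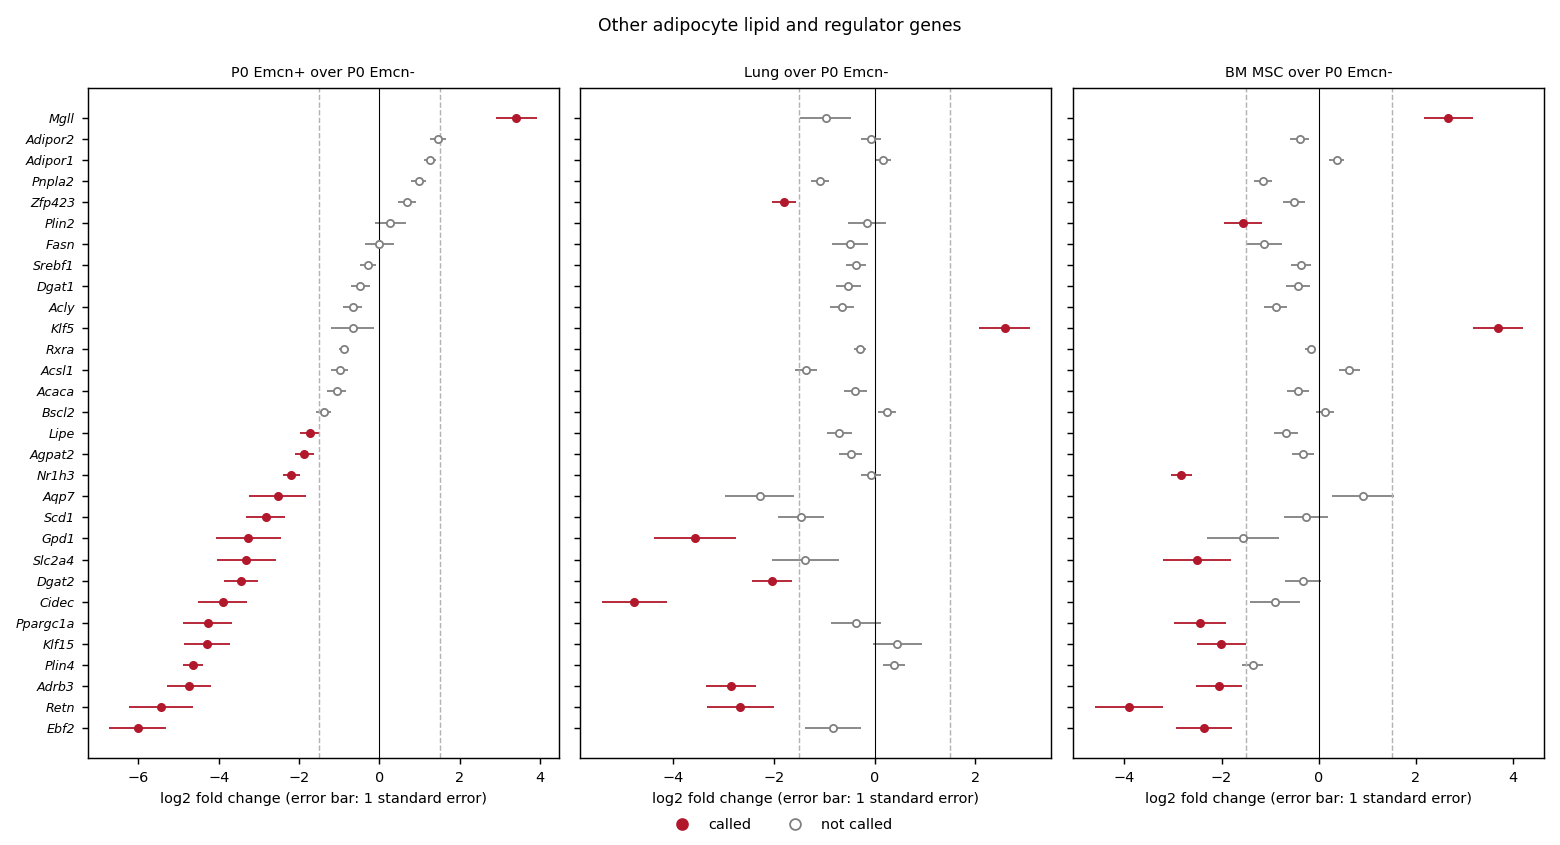
Log2 fold change (x axis, error bars 1 standard error) of the 30 tested genes of the fat-cell list in 3 comparisons with P0 Emcn-, ordered by the first; filled red points were called and dashed lines mark the fold limit. In P0 Emcn+ 15 genes were lower and 1 was higher, in Lung 6 and 1, and in BM MSC 8 and 2.

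In Lung 6 of these genes were lower and 1 higher, with a median of -0.58. They included Cidec, which fuses lipid droplets (-4.77 ± 0.64, adjusted p = 0.00347), Gpd1, an enzyme that supplies the glycerol backbone (-3.56 ± 0.82), Adrb3 (-2.85 ± 0.49) and Retn (-2.66 ± 0.66). BM MSC over P0 Emcn- had 8 lower and 2 higher (median -0.60), led by Retn at -3.90 ± 0.71, the transcription factor Klf5 at 3.69 ± 0.52, the sterol receptor Nr1h3 at -2.83 ± 0.22 and Mgll at 2.66 ± 0.50. Plin4 was the 1 gene called in P1 over P0 Emcn-, at 1.77 ± 0.22 (adjusted p = 0.000668), rising from 169 and 155 CPM to 521 and 470 CPM. In P3 over P1 0 of the 30 were called by edgeR or DESeq2 without the batch as a block, and 6 had an unadjusted p under 0.05. BM MSC over the mean of P1 to P3 had 9 lower and 2 higher, led by Retn (-3.31 ± 0.64), Nr1h3 (-3.21 ± 0.20), Plin4 (-3.13 ± 0.21) and the coactivator Ppargc1a (-3.00 ± 0.50).

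Of 9 tested partners of lipoprotein lipase and genes of fatty acid uptake 2 were higher and 1 lower in P0 Emcn+ cells. Gpihbp1, which carries the enzyme across capillary endothelium and holds it there, was at 328 and 109 CPM in P0 Emcn+ and at 6.70 and 0.101 CPM in P0 Emcn- (5.86 ± 1.14, adjusted p = 0.00283). Angptl4, which inactivates the enzyme, was at 232 and 359 CPM against 79.5 and 59.5 CPM (2.12 ± 0.22, adjusted p = 6.85e-05). The lipoprotein receptor Vldlr was lower (-1.96 ± 0.25), and the other 6 were not called. In Lung 0 of the 9 were called by edgeR and 1 by DESeq2 (4 at an unadjusted p under 0.05), and in P3 over P1 0 were called by either (2 at an unadjusted p under 0.05). In P1 over P0 Emcn- Gpihbp1 was lower (-4.87 ± 1.45, adjusted p = 0.0451), from a P0 level that lay almost wholly in replicate 1. In BM MSC over P0 Emcn- edgeR called 3 lower, DESeq2's Wald test called 2 and ashr shrinkage 1. Vldlr (-2.32 ± 0.25) and the fatty acid transporter Slc27a1 (-1.68 ± 0.46) were lower by edgeR. The third was Apoc2, an activator of the enzyme, from 5 and 1 counts in P0 Emcn- and 0 in both BM MSC libraries. Its highest level in those libraries was 0.126 CPM. Apoc2 was highest in P0 Emcn+, at 0.349 and 0.386 CPM, a group outside this comparison, so no weight is put on its call. Against the mean of P1 to P3 Vldlr alone was lower (-2.16 ± 0.23).

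A list of 12 genes drawn up as restraints on fat-cell differentiation was mixed. It holds Sfrp1, a secreted Wnt inhibitor, although Wnt signals are known to restrain this differentiation and Sfrp1 acts the other way, so the counts are of the list and not of restraints alone. In P0 Emcn+ over P0 Emcn- 5 were higher and 3 lower, with a median of 0.09. Dlk1, the preadipocyte factor, was at 0.285 and 2.01 CPM in P0 Emcn+ and at 45.4 and 896 CPM in P0 Emcn- (-8.68 ± 1.47, adjusted p = 0.00126), so its P0 Emcn- libraries differed widely. Sox9 (-6.29 ± 0.54) and Sfrp1 (-4.39 ± 1.05) were also lower, and Gata2, a factor that represses Pparg, was higher (3.15 ± 0.43). Gata2 was the 1 gene called in Lung (2.55 ± 0.42). Relative to P0 Emcn-, BM MSC had lower Dlk1 (-8.21 ± 1.43) and Gata3 (-1.93 ± 0.52) and higher Sfrp1 (4.02 ± 1.02). That was 1 higher and 2 lower of 12, where 11.3% of all genes were higher and 7.45% lower. In P1 over P0 Emcn- 0 of the 12 were called by edgeR and 1 by DESeq2 (6 at an unadjusted p under 0.05), and in P3 over P1 0 by either (1 at an unadjusted p under 0.05). BM MSC over the mean of P1 to P3 had 3 higher and 1 lower, with Dlk1 at -7.66 ± 1.36 and Gata2 at 2.79 ± 0.30.

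Cfd acts on factor B bound to C3, and 7 other genes of the alternative complement pathway were listed. In P0 Emcn+ over P0 Emcn- C3 (-6.89 ± 0.93, adjusted p = 0.000305) and factor B, Cfb (-4.50 ± 0.59), were lower and the membrane regulator Cd55 was higher (2.21 ± 0.73). In Lung, where Cfd was lower, C3 stood at 1647 and 5704 CPM against 2011 and 7353 CPM in P0 Emcn- and was not called. Of the 7 genes 4 were lower and 1 higher in BM MSC than in P0 Emcn-, with C3ar1 at -4.72 ± 0.66 and C3 at -4.24 ± 0.82. The properdin gene Cfp was the 1 gene called in P1 over P0 Emcn- (-1.57 ± 0.41), and 0 were called by edgeR or DESeq2 in P3 over P1 (1 at an unadjusted p under 0.05). BM MSC over the mean of P1 to P3 had 4 lower and 1 higher, with C3 at -2.72 ± 0.70. C3ar1 and Cfp are also made by macrophages, whose 10 markers were all lower in BM MSC than in P0 Emcn-, and the part of those cells was not tested.

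Likeness between genes was described by Pearson's r of log2(CPM + 1) over the 15 libraries, which share batches and conditions, so it carries no test. Of the 45 pairs among the 10 genes 5 had r above 0.8 and 14 were negative. The 5 pairs were Adipoq with Plin1 (0.888), Cebpa with Adipoq (0.864), Adipoq with Cfd (0.843), Cebpa with Plin1 (0.819) and Cebpa with Cfd (0.815). The lowest was Cebpb with Lepr (-0.508). Among all genes, the closest to Plin1 were Aqp7, a glycerol channel of fat cells (0.944), and Trarg1 (0.920), the closest to Cfd were Adig (0.969) and Retn (0.951), and the closest to Cebpa were Adcy5 (0.944) and Lgals12 (0.928). Lpl was closest to Syde2 (0.986) and Enpep (0.979), Adipoq to B3galt2 (0.942) and Hoxc10 (0.928), Pparg to Tigd2 (0.925) and Selenop (0.916), and Fabp4 to the basement membrane collagen Col4a1 (0.900) and Emc6 (0.900). Cebpb was closest to Gm15376 (0.951) and Adamts10 (0.942), and Cebpd to Fbxl13 (0.932) and H2-T23 (0.929). Lepr had the weakest partners of the 10 genes, Gm37614 (0.878) and Rpsa-ps1 (0.850).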

How the data were processed

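Bulk RNA-seq libraries had been made with the KAPA RNA HyperPrep kit. The methods name a different Illumina instrument for the first batch of biological replicates than for the later batches. They do not tie either instrument to the batch letters, so a part of the instrument in batch differences was not tested. According to the study's methods and the labels, the authors aligned reads to GRCm38 with STAR and quantified them with Salmon against Ensembl v81 in an nf-core workflow, and the deposited values are unnormalised gene counts in whole numbers; default workflow settings are named, but neither how strand was used nor how estimated counts became whole is spelled out in the sources used here. Libraries were grouped by their labels.

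Counts were tested with edgeR 4.0.16 in R 4.3.3 (TMM factors, filterByExpr with a minimum count of 10 and a total of 15, glmQLFit and glmQLFTest over all 15 libraries, 7 residual degrees of freedom), with Benjamini-Hochberg adjustment over 19401 genes. Calls needed an adjusted p under 0.05 and a log2 fold change beyond 1.5 in either direction. Standard errors were derived from the test, as the absolute log2 fold change divided by the square root of its F statistic. The script was tested on simulated data. Levels are CPM of the library total, and 8 rows have no symbol but an identifier. The labels do not tie libraries to mice, so p-values measure the spread between these libraries. Libraries of a condition differed beyond counting noise, and none was a duplicate.

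The replicate number marks a shared batch in the labels. Library deviations from their condition mean had r of 0.13 to 0.352 within batches d and a, 0.559 to 0.749 within b and c (passaged cells) and 0.0257 to 0.233 where no batch was shared. The fit with the batch as a replicate block had terms for d against a and b against c. Other alternatives were edgeR with relative log expression (RLE) factors, the Wald test of DESeq2 1.42.0 and its ashr 2.2.63 shrinkage. The rest were no filter or a minimum of 50 counts in 2 libraries, no fold limit, the compared groups alone, and each library left out.

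The 10 genes and all gene lists were chosen with earlier results of these data known. Named were the 10 genes, at most 4 called genes of each list and comparison with the largest change, and the 2 genes most like each of the 10; values outside that rule (markers, Lep, Mgll in P0 Emcn+, C3 in Lung) were added after their values were seen. Gene positions, transcript lengths (APPRIS principal) and overlaps are from GENCODE M21 (GRCm38), in which all 151 listed genes were found, and promoters from RefSeq (GRCm38.p6). Results of 1 gene of the complement list are not reported here.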

Additional observations from a re-analysis of the deposited data

Results flagged for a closer look

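The single P4 Emcn- library entered no comparison, and 2 of the 10 genes stood in it above both P0 Emcn- libraries. Pparg was at 67.2 CPM in P4, against 33.3 and 32.2 CPM in P0 Emcn-. Lepr was at 18.4 CPM in P4, against 4.53 and 13.3 CPM in P0 Emcn-. The P4 library came from batch b and the P0 libraries from batches d and a, so passage and batch cannot be told apart, and neither difference was tested.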

How the results depend on the processing

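Of the 18 calls among 60 values of the 10 genes, 0 changed direction under any alternative. The 32 reversals were of values that were not called. Over the settings other than leaving out 1 library, 405 of 430 values kept direction and side of the threshold, 10 lost and 9 gained a call. These settings include fits of the compared groups alone and of the passaged libraries of the BM MSC batch alone, which do not keep every library. Leaving out 1 library, 26 of 280 values changed direction. With no fold limit 6 of the genes were called in BM MSC over P0 Emcn- and 4 in BM MSC over the mean of P1 to P3, and the genes called in all rose to 6609 in P0 Emcn+, 6853 in BM MSC and 3387 in P1 over P0 Emcn-, and to 6206 in BM MSC over the passaged cells. For P3 over P1, where 43 genes were called, DESeq2's Wald test gave 303, ashr shrinkage 150, no filter 170, the replicate block 106 and a fit of those groups alone 153, and 2 of the 10 genes were called by the Wald test, the block and the fit of those groups alone. With ashr 5 of the 10 were called in P0 Emcn+ over P0 Emcn-, where edgeR called 7, and the calls of Cebpb and Cebpd were lost. With ashr 0 of the 10 were called in P1 over P0 Emcn- (edgeR called 1, and 2 had an unadjusted p under 0.05). Fits of the compared groups alone called 145 genes and 1 of the 10 in Lung, 2396 genes in BM MSC and 968 in P1, all over P0 Emcn-. Passaged libraries of the BM MSC batch alone, an alternative added after the data were seen, gave 1827 genes.

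Apart from the values given beside the results (Cebpd in P0 Emcn+, Lepr in Lung, Cfd in P3 over P1 and Lepr in BM MSC over the passaged cells), the replicate block changed no call. It moved Adipoq to -0.30 in BM MSC over P0 Emcn- and to -0.070 over the passaged cells, where the BM MSC batch alone gave -0.062. Cebpd in P3 over P1 was 0.0055 with edgeR's RLE factors or DESeq2's Wald test and 0.0012 with ashr.

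With 1 library left out, 1 to 3 of the 10 genes and 406 to 675 genes in all were called in Lung, 0 to 1 and 805 to 2196 in P1 over P0 Emcn-, 0 to 0 and 0 to 41 in P3 over P1, and 1 to 2 of the 10 in BM MSC over the passaged cells. A group left with 1 library borrows the spread of the rest of the design. The log2 values that changed sign ranged as follows. Lepr ran from -0.47 to 1.06 in P0 Emcn+, from -2.02 to 0.35 in BM MSC and from -0.12 to 2.52 in P1, all over P0 Emcn-, and from -0.96 to 2.53 in P3 over P1. In Lung Pparg ran from -0.51 to 0.29, Cebpb from -0.41 to 0.18 and Cebpd from -0.012 to 1.44. In BM MSC over P0 Emcn- Adipoq ran from -0.16 to 0.23 and Plin1 from -0.40 to 0.76, and in P1 over P0 Emcn- Cebpd ran from -1.14 to 0.32. In P3 over P1 Pparg ran from -0.11 to 0.61, Cebpa from -0.16 to 0.13, Cebpd from -0.083 to 0.055, Fabp4 from -0.75 to 0.29 and Plin1 from -0.080 to 0.68. Over the passaged cells, BM MSC values ran from -1.30 to 0.28 for Cebpa and from -0.12 to 0.27 for Adipoq. The causes of these changes were not tested.

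With 2 libraries a condition, a value that missed the threshold does not show that conditions were alike. The fewest counts behind a value of the 10 genes were 4, for Plin1 in Lung replicate 2 (0.184 CPM).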

Other observations

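Markers of bone-forming and mural cells set the BM MSC libraries apart from the passaged Emcn- cells. Of 8 osteoblast markers 6 were higher and 0 lower in BM MSC than in the mean of P1 to P3 Emcn-, with a summed level of 138 to 230 CPM against 23.5 to 28.3 CPM. Alpl, the alkaline phosphatase of mineralising cells, was at 106 and 48.9 CPM in BM MSC and between 0.48 and 1.11 CPM in P1 to P3. Of 8 mural markers 5 were higher and 0 lower, with a summed level of 1284 to 1712 CPM against 77.2 to 166 CPM, and most of that sum was smooth muscle actin, Acta2, at 789 and 1035 CPM. Adipoq was at similar levels in BM MSC and the passaged cells. Markers of lung epithelium summed to at most 0.138 CPM in the Lung libraries.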
